A study of Homo sapiens with 2 samples.

Results

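Cells keep their cholesterol in balance by making it, taking it up and exporting it, and the 30 genes described here cover these routes. They comprise 19 enzymes of cholesterol synthesis and 11 genes of SREBP control, sterol uptake, transport, efflux and esterification. The members were taken by name from a table of 58884 Ensembl genes, and all 30 were found in it. The RNA-seq table has 2 libraries from the papillary thyroid carcinoma line TPC-1, human cells with a CCDC6-RET fusion: 1 from cells given an siRNA against XPR1 and 1 from cells given a control siRNA. XPR1 exports phosphate from human cells. The labels name neither the siRNA sequences nor the time point after transfection, so loss of XPR1 and other effects of these siRNAs cannot be told apart. With 1 library per group there is no replicate and no test of the conditions: "higher" and "lower" compare single libraries, and the 95% Clopper-Pearson intervals cover counting error only.

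Cholesterol is built in the endoplasmic reticulum from acetyl-CoA. A first series of enzymes, the mevalonate arm, makes farnesyl diphosphate, and a second series joins this into squalene, closes the rings and trims lanosterol to cholesterol. When sterols in the membrane run low, SCAP carries the transcription factors SREBP-1 and SREBP-2 to the Golgi, where they are cut and released to activate synthesis and uptake genes. When sterols are plentiful, INSIG proteins hold SCAP back, and oxysterols activate the liver X receptors, which induce the exporters ABCA1 and ABCG1 and the ubiquitin ligase MYLIP.

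XPR1 transcript was 5.31 TPM (a length-corrected share of transcripts, scaled to 1000000 per library) in the XPR1-siRNA library and 39.2 TPM in the control library, so that 13.5% remained (11.6% to 15.7%). By the TPM values and gene lengths, the XPR1-siRNA library held about 15153231 counted reads and the control library about 15777864. Mitochondrial genes held 27.5% of TPM in the XPR1-siRNA library and 27.3% in the control library. The thyroid factor PAX8 was 408.6 TPM with XPR1 siRNA and 588.1 TPM with control siRNA. FOXE1, another thyroid factor, was 13.7 TPM with XPR1 siRNA and 11.1 TPM with control siRNA. The keratin KRT18 was 94.0 TPM with XPR1 siRNA and 135.9 TPM with control siRNA, while NKX2-1, TSHR and EPCAM were listed at 0 in both. Of 4 leukocyte markers none reached a mean of 1 TPM, and their summed level was 0.598 TPM with XPR1 siRNA and 0.457 TPM with control siRNA. The summed level of 3 endothelial markers was 0.971 TPM with XPR1 siRNA and 1.49 TPM with control siRNA, with 1 at a mean of at least 1 TPM, and that of 4 fibroblast markers 7.78 TPM with XPR1 siRNA and 1.19 TPM with control siRNA, mostly the collagen COL1A1. COL1A1 was 6.67 TPM with XPR1 siRNA and 1.04 TPM with control siRNA. LUM was 1.11 TPM with XPR1 siRNA and 0.0887 TPM with control siRNA. COL1A2 went the other way, at 0 TPM with XPR1 siRNA and 0.0637 TPM with control siRNA, and DCN was at 0 in both. The part of fibroblast transcripts in the results was not tested. The 3 liver markers, the liver being a main site of cholesterol synthesis, were also at 0. In bulk RNA, fewer cells of a type and less RNA per cell cannot be told apart.

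The synthesis enzymes were higher in the XPR1-siRNA library, and the regulators and transport genes lay on both sides. Of the 19 enzymes, 18 were higher by at least 1.5-fold on the log2(TPM + 1) scale and none was lower, and 13 were at least 2-fold higher. All 16319 genes that averaged 1 TPM or more gave 21.7% higher and 16.6% lower by that measure, and 10.4% higher and 8.57% lower by at least 2-fold. The counting interval of the ratio lay above 1 for all 19 enzymes, against 32.2% of all genes tested, and below 1 for 24.7% of them. The median difference on that scale was 1.20 for the enzymes and 0.05 for all genes tested. Summed over the 19 enzymes, the level was 2009 TPM in the XPR1-siRNA library and 872.6 TPM in the control library, a ratio of 2.30.

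Of the other 11 genes, 10 had a mean of at least 1 TPM. INSIG1 was at least 1.5-fold higher, STARD4 and ABCA1 were at least 1.5-fold lower, and 7 were within 1.5-fold. These calls, 1 of 10 higher and 2 of 10 lower, stand beside 21.7% and 16.6% of all genes tested. The share of lower calls was thus near that of all genes. The counting interval of the ratio lay above 1 for 4 of the 10 and below 1 for 5. Of all genes tested, 32.2% had it above 1 and 24.7% below 1. The median difference of the 10 was -0.07, which is 1.27 below that of the enzymes on the log2(TPM + 1) scale. The summed level of all 11 was 868.3 TPM with XPR1 siRNA and 846.4 TPM with control siRNA, a ratio of 1.03. No gene of this group reached 2-fold in either direction, and the lowest enzyme, PMVK, lay below INSIG1, so the ranges of the enzymes and the other genes overlapped only there.

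**Figure D1:**
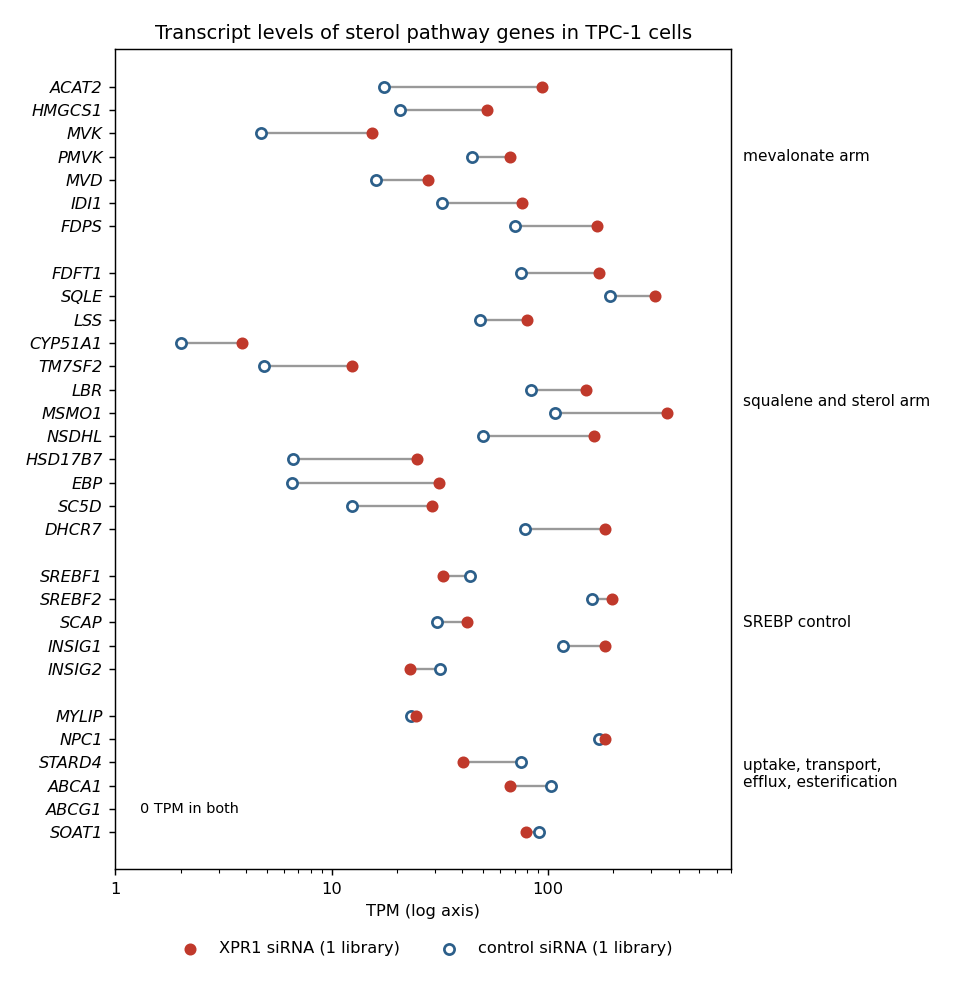
Levels of the 30 genes in TPM on a log axis, with filled points for the XPR1-siRNA library, open points for the control library and a line joining both values of a gene (1 library each, no error). The filled point lies to the right for all 19 synthesis enzymes, and to the left for SREBF1, INSIG2, STARD4, ABCA1 and SOAT1.

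The mevalonate arm had 6 of 7 enzymes at least 1.5-fold higher, with a median difference of 1.24. ACAT2 (ENSG00000120437, chr6:159760328-159779055 on the plus strand of GRCh38), the cytosolic thiolase that joins acetyl-CoA units, was 94.0 TPM in the XPR1-siRNA library and 17.5 TPM in the control library, 5.38-fold higher (4.77 to 6.09). It had the largest ratio of the 30 genes and ranked 48th from the highest among the 11698 protein-coding genes tested. Of its exonic bases, 52.3% also belong to genes on the other strand, among them TCP1 and SOD2. TCP1 was 186.3 TPM with XPR1 siRNA and 165.6 TPM with control siRNA and SOD2 600.0 TPM with XPR1 siRNA and 1326 TPM with control siRNA, and their part in the ACAT2 value was not tested.

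HMGCS1, which makes HMG-CoA, was 52.1 TPM in the XPR1-siRNA library and 20.7 TPM in the control library, 2.52-fold higher (2.24 to 2.83). Mevalonate kinase, MVK, was 15.4 TPM with XPR1 siRNA and 4.71 TPM with control siRNA, 3.27-fold higher (2.68 to 4.02). The next kinase of the arm, PMVK, was 66.6 TPM with XPR1 siRNA and 44.2 TPM with control siRNA, a ratio of 1.51 (1.27 to 1.78). On the log2(TPM + 1) scale its difference of 0.58 was just short of the threshold, whose log2 is 0.585. The step after it, catalysed by the decarboxylase MVD, was 27.9 TPM with XPR1 siRNA and 15.9 TPM with control siRNA, 1.75-fold higher (1.52 to 2.02). PMVK and MVD were thus the members of the arm with the smallest ratios, and their intervals overlap.

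IDI1, which interconverts the isopentenyl and dimethylallyl diphosphates, was 75.7 TPM in the XPR1-siRNA library and 32.4 TPM in the control library. FDPS, which builds farnesyl diphosphate from them, was 167.3 TPM with XPR1 siRNA and 70.5 TPM with control siRNA. The ratio was 2.34 (2.12 to 2.58) for IDI1 and 2.37 (2.21 to 2.55) for FDPS, with overlapping intervals. FDPS was the most abundant enzyme of the arm in either library. It shares 18.6% of its exonic bases with RUSC1-AS1 on the other strand (14.2 TPM with XPR1 siRNA and 7.55 TPM with control siRNA), and its 8 named copies in the annotation summed to 1.15 TPM with XPR1 siRNA and 1.10 TPM with control siRNA.

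Of the squalene and sterol arm, all 12 enzymes were at least 1.5-fold higher, with a median difference of 1.19. FDFT1, the squalene synthase that commits farnesyl diphosphate to sterols, was 170.9 TPM in the XPR1-siRNA library and 74.6 TPM in the control library, 2.29-fold higher (2.16 to 2.43). SQLE, the squalene epoxidase and a rate-limiting enzyme, was 311.4 TPM with XPR1 siRNA and 192.6 TPM with control siRNA. LSS, which closes the rings to give lanosterol, was 79.6 TPM with XPR1 siRNA and 48.2 TPM with control siRNA. At 1.62-fold (1.55 to 1.69) and 1.65-fold (1.55 to 1.77), SQLE and LSS had intervals entirely below that of FDFT1.

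The removal of methyl groups from lanosterol follows. CYP51A1, the lanosterol demethylase, was listed at only 3.84 TPM with XPR1 siRNA and 2.01 TPM with control siRNA (56 reads with XPR1 siRNA and 30 with control siRNA), a ratio of 1.91 (1.22 to 3.13). It shares 83.2% of its exonic bases with other annotated genes, among them a pair on the same strand that were listed at 0 TPM, so its level is uncertain. Of the C14 sterol reductases, TM7SF2 was 12.4 TPM with XPR1 siRNA and 4.87 TPM with control siRNA. The other, LBR, was 148.7 TPM with XPR1 siRNA and 83.2 TPM with control siRNA. LBR, which is also a receptor for lamins at the inner nuclear membrane, had the smaller ratio, 1.79 (1.69 to 1.89), against 2.54 (1.91 to 3.40) for TM7SF2.

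The C4-demethylation enzymes lay close together, a grouping made after their values were seen. MSMO1 (ENSG00000052802, chr4:165327623-165343160, plus strand), the C4-methyl oxidase, was 354.3 TPM in the XPR1-siRNA library and 107.8 TPM in the control library, 3.29-fold higher (3.09 to 3.50). NSDHL (ENSG00000147383, chrX:152830967-152869729, plus strand), the C4 decarboxylase, was 161.9 TPM with XPR1 siRNA and 49.7 TPM with control siRNA, 3.25-fold higher (2.91 to 3.64). HSD17B7 (ENSG00000132196, chr1:162790702-162812817, plus strand), the 3-ketosteroid reductase, was 24.7 TPM with XPR1 siRNA and 6.60 TPM with control siRNA, 3.75-fold higher (3.09 to 4.58). The intervals of these 3 ratios overlap, and that of MVK in the mevalonate arm (2.68 to 4.02) overlaps them too. HSD17B7 has 2 named copies, whose summed level was 4.91 TPM with XPR1 siRNA and 2.52 TPM with control siRNA, and reads may be divided among them.

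EBP (ENSG00000147155, chrX:48521158-48528716, plus strand), the sterol isomerase that moves the ring double bond, was 31.2 TPM in the XPR1-siRNA library and 6.57 TPM in the control library, 4.75-fold higher (3.62 to 6.26). It ranked 81st from the highest among protein-coding genes. SC5D, which desaturates the ring, was 29.1 TPM with XPR1 siRNA and 12.4 TPM with control siRNA, 2.35-fold higher (2.04 to 2.70). DHCR7, a last-step reductase and the branch point to vitamin D, was 182.1 TPM with XPR1 siRNA and 78.2 TPM with control siRNA, 2.33-fold higher (2.19 to 2.48). In this arm the most abundant transcript was that of MSMO1 in the XPR1-siRNA library and that of SQLE in the control library.

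**Figure D2:**
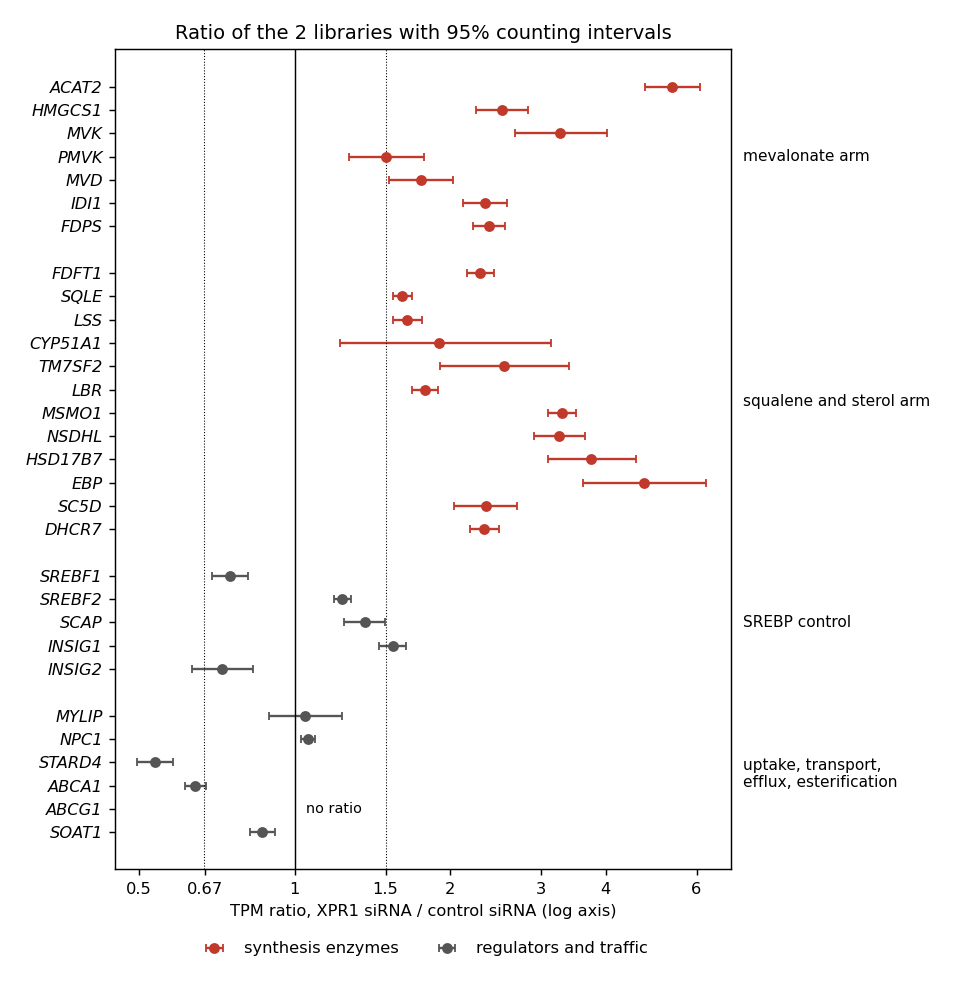
Ratio of TPM in the XPR1-siRNA library to TPM in the control library, on a log axis, with 95% counting intervals from recovered reads; the solid line marks equality and dotted lines mark 1.5-fold. All 19 synthesis intervals lie above 1, and by ratio the enzymes run from PMVK (interval 1.27 to 1.78) up to ACAT2 (4.77 to 6.09). The intervals of SREBF1, INSIG2, STARD4, ABCA1 and SOAT1 lie below 1.

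The SREBP control genes differed less than the enzymes. SREBF2, which encodes SREBP-2, the main activator of cholesterol synthesis, was 196.6 TPM in the XPR1-siRNA library and 158.9 TPM in the control library, a ratio of 1.24 (1.19 to 1.28). SREBF1, which encodes SREBP-1 and acts mostly on fatty acid genes, was 32.7 TPM with XPR1 siRNA and 43.6 TPM with control siRNA, a ratio of 0.749 (0.692 to 0.811). The escort SCAP was 42.0 TPM with XPR1 siRNA and 30.8 TPM with control siRNA, a ratio of 1.37 (1.25 to 1.497). The transcripts for both SREBPs thus differed in opposite directions, each by less than 1.5-fold.

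The 2 INSIG genes also lay on opposite sides. INSIG1, itself an SREBP target, was 182.0 TPM in the XPR1-siRNA library and 117.4 TPM in the control library, 1.55-fold higher (1.46 to 1.65). INSIG2, which is less dependent on SREBP, was 23.0 TPM with XPR1 siRNA and 31.7 TPM with control siRNA, a ratio of 0.725 (0.633 to 0.830). INSIG1 was the only one of the 5 control genes past 1.5-fold, and it no longer passed under median-of-ratios or upper-quartile scaling.

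Among transport genes, STARD4 (ENSG00000164211, chr5:111496033-111512590, minus strand), a soluble carrier of cholesterol between membranes, was 40.3 TPM in the XPR1-siRNA library and 74.9 TPM in the control library, 1.86-fold lower (1.72 to 2.02). It had the lowest ratio of the members and ranked 664th from the lowest among 11698 protein-coding genes. ABCA1 (ENSG00000165029, chr9:104781002-104928237, minus strand), which loads cholesterol onto apolipoproteins at the cell surface, was 66.3 TPM with XPR1 siRNA and 103.1 TPM with control siRNA, 1.56-fold lower (1.49 to 1.63). These were the 2 lower calls among the 30 genes, where 16.6% of all genes tested were lower.

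ABCG1, which exports cholesterol to mature high-density lipoprotein, was listed at 0 TPM in both libraries, where 3 reads, the limit that a count of 0 allows, would have given 0.121 TPM with XPR1 siRNA and 0.116 TPM with control siRNA. NPC1, which moves cholesterol out of lysosomes, was 182.3 TPM in the XPR1-siRNA library and 171.6 TPM in the control library, and MYLIP, the ligase that marks lipoprotein receptors for degradation, was 24.5 TPM with XPR1 siRNA and 23.3 TPM with control siRNA. Their differences of 0.09 and 0.07 turned slightly negative under upper-quartile scaling. SOAT1, which esterifies cholesterol for storage, was 78.8 TPM with XPR1 siRNA and 91.0 TPM with control siRNA, a ratio of 0.866 (0.818 to 0.916). Of the 5 uptake, transport, efflux and esterification genes tested, none was at least 1.5-fold higher, beside 21.7% of all genes tested.

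**Figure D3:**
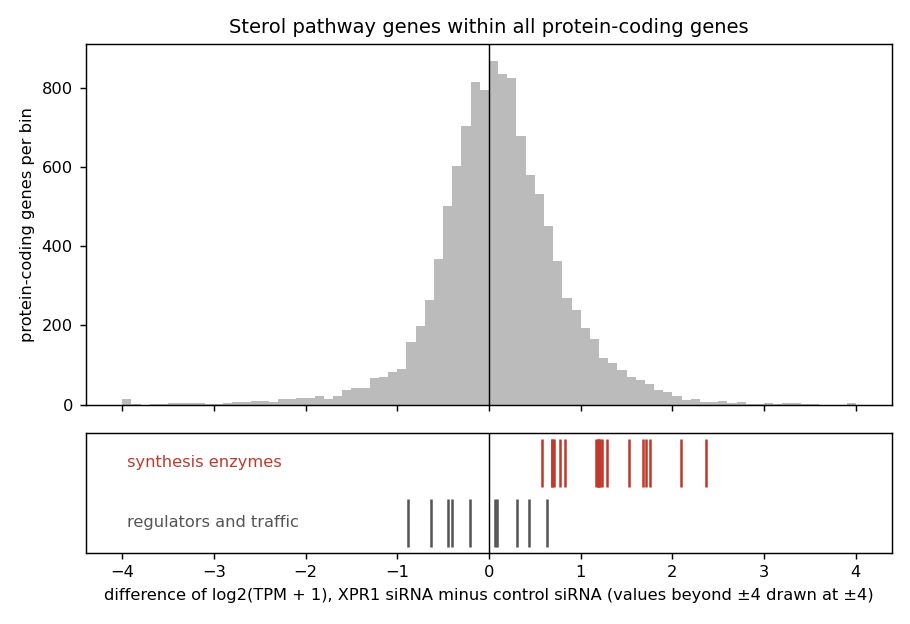
Difference of log2(TPM + 1), XPR1 siRNA minus control siRNA, for the 11698 protein-coding genes tested (grey bars, genes per bin of the axis) and, below, 1 line per gene for the 19 synthesis enzymes and the 10 other genes tested. The enzymes run from 0.58 to 2.36, and the other genes from -0.88 to 0.63.

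The promoter sequences of the members were searched for letters bound by SREBPs and by NF-Y, a factor that binds CCAAT boxes and is known to work beside SREBP at sterol genes. RefSeq windows on GRCh38.p14, from 250 bases before to 50 bases after each transcript start, matched 26 of the 30 genes. ACAT2, FDFT1, SQLE and ABCG1 had no window and were not searched. The CCAAT box (CCAAT on either strand) stood in the window of 13 of 16 synthesis enzymes, against 5 of 10 regulators and transport genes and 42.5% of 15317 protein-coding genes with a window and 43.6% of the 9579 of them that were tested here. The enzymes without it were CYP51A1, LBR and PMVK, all of them below 2-fold, as were MVD and LSS, which hold it. The sterol regulatory element (TCACNCCAC on either strand) stood in 1 of the 26, SREBF2, against 1.53% of protein-coding genes and 1.45% of those tested. The palindromic E-box CACGTG, which SREBPs can also bind, stood in 2 of 16 enzymes and 3 of 10 others, against 10.9% and 12.8%. The GC box (GGGCGG on either strand), bound by SP1, stood in 14 of 16 enzymes and 10 of 10 others, against 65.1% and 77.7%. The letters of these 4 motifs were searched separately. A gene with several windows was counted once if any of them held the letters. Letters in a window do not show that a factor was bound. Only these exact letters were searched, so a window without them may still hold a site that differs from them. Sequence outside the windows was not searched.

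The 250 bases before the start are shown for the 4 enzymes with the largest differences among those with a window and a CCAAT box there. They are also shown for SREBF2, INSIG1 and STARD4, picked from the 5 regulators and transport genes with a CCAAT box. SREBF2 and INSIG1 were higher in the XPR1-siRNA library, by smaller ratios than these 4 enzymes, and STARD4 was lower. Capitals mark CCAAT or its complement ATTGG, in SREBF2 also the sterol regulatory element, and in INSIG1 also the E-box. Each sequence runs 5′ to 3′ on the gene's own strand. Starts are those of RefSeq, which differ from the GENCODE 29 gene limits given above: the stretch of EBP lies wholly inside the GENCODE span of the gene, those of MSMO1, NSDHL, SREBF2, INSIG1 and STARD4 partly, and that of HSD17B7 outside it. EBP lies at chrX:48521558-48521807 (plus strand), HSD17B7 at chr1:162790452-162790701 (plus), MSMO1 at chr4:165327419-165327668 (plus), NSDHL at chrX:152830813-152831062 (plus), SREBF2 at chr22:41832855-41833104 (plus), INSIG1 at chr7:155297628-155297877 (plus) and STARD4 at chr5:111512536-111512785 (minus).
EBP: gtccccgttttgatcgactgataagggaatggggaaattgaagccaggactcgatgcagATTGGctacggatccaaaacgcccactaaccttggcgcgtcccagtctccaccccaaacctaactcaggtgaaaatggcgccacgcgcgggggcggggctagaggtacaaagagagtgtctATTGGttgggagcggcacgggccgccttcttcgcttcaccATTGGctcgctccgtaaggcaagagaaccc
HSD17B7: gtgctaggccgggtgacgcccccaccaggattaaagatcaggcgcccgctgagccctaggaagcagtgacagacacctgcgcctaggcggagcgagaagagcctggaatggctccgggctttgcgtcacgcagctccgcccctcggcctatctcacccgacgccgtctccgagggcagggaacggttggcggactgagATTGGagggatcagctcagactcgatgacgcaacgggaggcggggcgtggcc
MSMO1: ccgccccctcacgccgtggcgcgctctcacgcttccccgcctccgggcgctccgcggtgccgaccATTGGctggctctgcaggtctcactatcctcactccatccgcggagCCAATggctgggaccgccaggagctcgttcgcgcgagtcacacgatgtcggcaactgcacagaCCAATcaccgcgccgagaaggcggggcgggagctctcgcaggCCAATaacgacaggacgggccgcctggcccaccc
NSDHL: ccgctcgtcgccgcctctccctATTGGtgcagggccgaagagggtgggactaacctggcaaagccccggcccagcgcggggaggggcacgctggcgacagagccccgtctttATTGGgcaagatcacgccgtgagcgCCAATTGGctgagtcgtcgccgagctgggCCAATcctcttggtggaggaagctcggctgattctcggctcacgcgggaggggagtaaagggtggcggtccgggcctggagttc
SREBF2: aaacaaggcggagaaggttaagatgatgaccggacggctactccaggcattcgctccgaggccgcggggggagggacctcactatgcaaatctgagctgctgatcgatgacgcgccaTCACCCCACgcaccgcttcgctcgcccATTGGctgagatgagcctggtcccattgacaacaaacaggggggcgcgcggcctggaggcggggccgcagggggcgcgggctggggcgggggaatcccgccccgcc
INSIG1: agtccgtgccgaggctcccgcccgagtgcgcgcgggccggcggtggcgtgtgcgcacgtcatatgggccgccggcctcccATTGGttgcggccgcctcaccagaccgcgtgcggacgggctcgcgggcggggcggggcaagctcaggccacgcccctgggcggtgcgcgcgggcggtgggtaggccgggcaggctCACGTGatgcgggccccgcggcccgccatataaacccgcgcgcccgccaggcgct
STARD4: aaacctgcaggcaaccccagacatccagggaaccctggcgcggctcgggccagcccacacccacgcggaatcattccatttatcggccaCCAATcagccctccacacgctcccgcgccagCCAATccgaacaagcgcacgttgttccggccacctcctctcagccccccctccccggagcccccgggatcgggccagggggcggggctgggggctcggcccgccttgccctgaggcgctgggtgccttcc

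These stretches held 5 CCAAT boxes in NSDHL, where a pair overlaps, 4 in MSMO1, 3 in EBP and 1 in HSD17B7. STARD4, lower in the XPR1-siRNA library, held 2 of them, and SREBF2 and INSIG1 held 1 each. Every gene shown holds a CCAAT box by the choice of genes, so these numbers do not compare genes by direction. The regulators and transport genes without a CCAAT box, ABCA1, INSIG2, NPC1, SCAP and SREBF1, are not shown. The sterol regulatory element of SREBF2 began 133 bases before the start, 27 bases ahead of its CCAAT box.

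**Figure D4:**
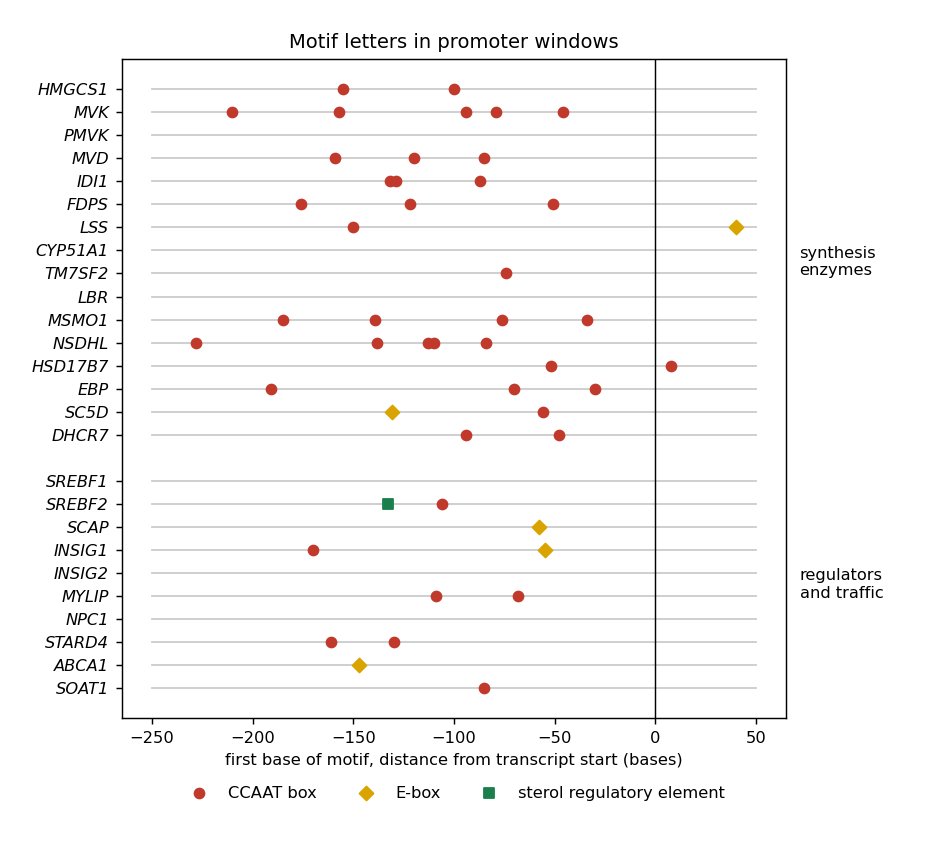
First base of each CCAAT box, E-box and sterol regulatory element along the promoter windows of 26 genes, as distance in bases from the transcript start, with synthesis enzymes above and regulators and transport genes below; for a gene with several starts the window with most CCAAT boxes is drawn. The CCAAT boxes of the enzymes fall between 228 bases before and 8 bases after the start.

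Genes around the pathway were described from 9 lists, each set beside all genes tested, of which 21.7% were at least 1.5-fold higher and 16.6% lower. Of the electron donors and partners of the sterol enzymes, 5 of 8 (62.5%) passed 1.5-fold upward and none downward, and the median difference was 0.91. ERG28, a scaffold for the C4-demethylation enzymes, was 100.8 TPM in the XPR1-siRNA library and 30.1 TPM in the control library, 3.34-fold higher (2.96 to 3.79). TMEM97, a sterol-responsive membrane protein that binds NPC1, was 60.4 TPM with XPR1 siRNA and 19.4 TPM with control siRNA. CYB5A, a cytochrome b5 that passes electrons to sterol desaturation and demethylation, was 18.3 TPM with XPR1 siRNA and 6.39 TPM with control siRNA. The reductase that feeds it, CYB5R3 (picked with its value known), was 129.2 TPM with XPR1 siRNA and 183.1 TPM with control siRNA, and its difference of -0.50 made it the lowest of the list. Under upper-quartile scaling it was -0.59, past 1.5-fold downward.

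Another list held genes whose proteins cut SREBPs or degrade sterol enzymes and INSIGs. Of the 11 described here, 2 (18.2%) passed 1.5-fold upward and none downward, and the median was 0.24. The share of higher genes was near the 21.7% of all genes tested. The following genes were named after their values were seen. SPRING1, which helps the site-1 protease mature, was 25.3 TPM in the XPR1-siRNA library and 14.6 TPM in the control library. ERLIN1, a scaffold of degradation at the endoplasmic reticulum, was 190.6 TPM with XPR1 siRNA and 126.3 TPM with control siRNA, and its difference of 0.59 was below the threshold under median-of-ratios scaling (0.53), under upper-quartile scaling (0.50) and with a pseudocount of 5 (0.58). The site-1 protease MBTPS1 was 97.9 TPM with XPR1 siRNA and 80.1 TPM with control siRNA. The site-2 protease MBTPS2 was 17.3 TPM with XPR1 siRNA and 19.7 TPM with control siRNA.

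Genes of lipoprotein uptake other than the members had a median of 0.20, and of the 6 described here 2 (33.3%) passed 1.5-fold upward and none downward, beside 21.7% and 16.6% of all genes tested. Both were named after their values were seen. The high-density lipoprotein receptor SCARB1 was 12.6 TPM with XPR1 siRNA and 6.61 TPM with control siRNA. The receptor chaperone LRPAP1 was 32.2 TPM with XPR1 siRNA and 20.1 TPM with control siRNA. LRPAP1 was below the threshold under upper-quartile scaling and with a pseudocount of 5 (0.57 under both). Among 16 genes of lysosomal and membrane sterol transport, the median was 0.06, and 6 (37.5%) passed 1.5-fold upward and none downward. LIPA, which hydrolyses cholesteryl esters in lysosomes, was 125.9 TPM in the XPR1-siRNA library and 37.3 TPM in the control library, 3.38-fold higher (3.11 to 3.66). NPC2, which hands the freed cholesterol to NPC1, was 67.3 TPM with XPR1 siRNA and 32.8 TPM with control siRNA, 2.05-fold higher (1.81 to 2.33). In this route LIPA and NPC2 were thus at least 2-fold higher and NPC1 was within 1.5-fold.

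The liver X receptors and their partners and targets had a median of 0.24, and 1 of 9 (11.1%) passed 1.5-fold upward and none downward, beside 21.7% and 16.6% of all genes tested. NR1H2, the liver X receptor with the higher level here, was 25.9 TPM in the XPR1-siRNA library and 37.2 TPM in the control library, and NR1H3 was 2.82 TPM with XPR1 siRNA and 2.25 TPM with control siRNA. The call was LPCAT3, which remodels membrane phospholipids, at 11.7 TPM with XPR1 siRNA and 6.21 TPM with control siRNA. With a pseudocount of 5 it was below the threshold (0.57), and under upper-quartile scaling NR1H2 was past it downward (-0.59). All 3 were named after their values were seen. Of the liver X receptor targets in the member list, ABCA1 was lower, MYLIP within 1.5-fold and ABCG1 at 0, as given above.

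**Figure D5:**
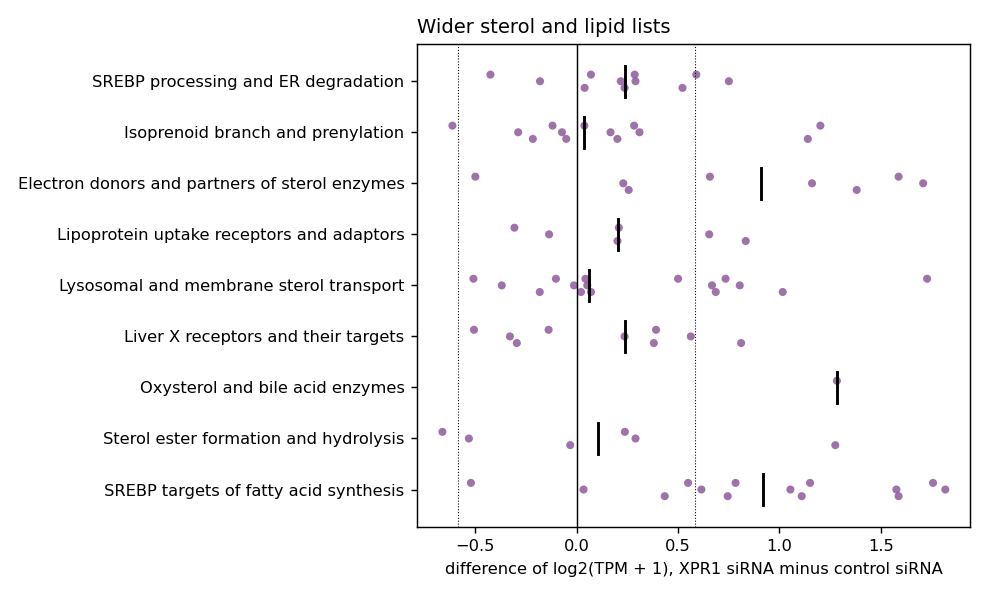
Difference of log2(TPM + 1), XPR1 siRNA minus control siRNA, for genes tested in 9 lists around the pathway; each point is a gene, bars mark medians, and dotted lines mark 1.5-fold. The lists of electron donors and of fatty acid synthesis, and the 1 gene tested among oxysterol and bile acid enzymes, have medians above 0.9, and those of SREBP processing, uptake, sterol transport and liver X receptors lie between 0.06 and 0.24.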

How the data were processed

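RNA of TPC-1 cells was measured by RNA-seq in 2 libraries, prepared, per the labels' protocols, with TruSeq RNA Library Prep reagents that do not mark strand. Per the submitters' processing notes, featureCounts 2.0.0, Trimmomatic 0.38, MultiQC and FastQC were used, with GRCh38. No aligner or annotation is named. The authors deposited TPM values for 58884 genes, and each column sums to 1000000.

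Symbols came from a table of gene identifiers (58472 matched) or GENCODE 29, and coordinates, gene types and exonic lengths from GENCODE 29. Genes averaging 1 TPM or more over both libraries were compared as differences of log2(TPM + 1), XPR1 siRNA minus control siRNA. This scale understates differences of low genes. A difference of at least 1.5-fold on it was counted. Ratios are of TPM. TPM times exonic length fell on multiples of 1 step per library (246.3 for XPR1 siRNA and 237.0 for control siRNA), and gave read numbers; among genes of at most 10 reads, 92.5% with XPR1 siRNA and 92.4% with control siRNA came within 0.01 of whole reads. Among the 29 members tested, 12 came out whole in both libraries, so intervals of the others are approximate. Without molecular identifiers, reads are not independent molecules. This recovery was added after seeing the data and was tested on simulated data. The simulation used the same GENCODE 29 lengths, so it cannot show whether the authors' lengths match them.

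The named genes are the 30 members, XPR1, and up to 3 genes per direction from each wider list that were at least 2-fold apart. Other list genes were named after their values were seen, as stated beside them. Members and lists were chosen with earlier results of these data known. Some genes of the pathway are not reported here and are left out of the counts and medians of the lists. Alternatives covered the threshold, pseudocount, floor and scaling, and were computed with Python 3.11.15, pandas 2.3.3 and scipy 1.17.1.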

Additional observations from a re-analysis of the deposited data

How the results depend on the processing

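No paired analysis was possible because there are only 2 libraries, 1 per condition, and none could be left out. The 19 synthesis enzymes had between 17 and 19 called higher, and none lower, under pseudocounts of 0.1 and 5, floors of 0 and 5 TPM and all 3 scalings. At the 2-fold threshold 13 enzymes were higher, and of the regulators and transport genes 0 were higher and 0 lower. Under median-of-ratios and upper-quartile scaling, which multiplied the XPR1-siRNA values by factors with a log2 of -0.06 and -0.09, 0 regulators and transport genes were called higher instead of 1, since INSIG1 fell below the threshold. With 6 members left out for shared exonic bases or named copies, an alternative added after seeing the data, 12 of 13 enzymes were called higher with a median of 1.18. Requiring in addition a counting interval that excludes equality, also added later, left the counts at 18, 0, 1 and 2. The median of the enzymes ranged from 1.11 to 1.22, and the gap to the other genes from 1.18 to 1.29. Small lists moved more: calls among liver X receptor genes numbered 3 higher with a pseudocount of 0.1, 0 with 5 and 1 with the reported pseudocount, and RABGGTB and CES1, the lower calls of their lists, did not pass with a pseudocount of 5. No called member changed sign under any pseudocount or scaling. Counting error limits CYP51A1 most, with 56 reads in the XPR1-siRNA library and 30 in the control library. The number of libraries, 1 per group, limits all results.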

Other observations

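Other lipid routes start from the same precursors. A list of SREBP targets, mostly of fatty acid synthesis, had 10 of 14 at least 1.5-fold higher, none lower and a median difference of 0.92. Of all genes tested, 21.7% were higher and 16.6% lower. ACLY, which makes cytosolic acetyl-CoA for both fatty acids and sterols, was 456.0 TPM in the XPR1-siRNA library and 128.6 TPM in the control library, and ACACB, an acetyl-CoA carboxylase, was 10.2 TPM with XPR1 siRNA and 2.30 TPM with control siRNA. TMEM97, PCYT2 and PNPLA3, which are not enzymes of fatty acid synthesis, are among the 10 higher genes. TMEM97 is thus counted both here and among the electron donors and partners. The lowest was LPIN1, a phosphatidate phosphatase named after its value was seen, at 49.4 TPM with XPR1 siRNA and 71.4 TPM with control siRNA.

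The isoprenoid branch, which uses farnesyl diphosphate for protein prenylation, dolichol and ubiquinone, had 2 of 13 genes at least 1.5-fold higher, 1 lower and a median of 0.04. These shares, 15.4% and 7.69%, stand beside 21.7% and 16.6% of all genes tested. With only 13 genes tested, they are not read as a difference from that background. The higher ones were COQ2, which attaches the ubiquinone tail, at 32.9 TPM in the XPR1-siRNA library and 13.8 TPM in the control library, and ICMT, which methylates prenylated proteins, at 107.3 TPM with XPR1 siRNA and 48.2 TPM with control siRNA. The lower one, named after its value was seen, was RABGGTB, a subunit of the Rab prenyltransferase, at 26.3 TPM with XPR1 siRNA and 40.7 TPM with control siRNA. Sterol ester genes had 1 of 6 higher, the lipid droplet protein PLIN3, and 1 lower, CES1 (named after its value was seen), with a median of 0.10 (16.7% each way, beside the same background). PLIN3 was 150.4 TPM with XPR1 siRNA and 61.5 TPM with control siRNA, and the esterase CES1 was 2.18 TPM with XPR1 siRNA and 4.03 TPM with control siRNA. Of 7 oxysterol and bile acid enzymes, only HSD3B7 reached a mean of 1 TPM, at 5.84 TPM with XPR1 siRNA and 1.81 TPM with control siRNA, a ratio of 3.23 (1.90 to 5.73).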
